A study of Mus musculus with 9 samples.

Results

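Expression was compared between day 3 and day 1 of an air-liquid interface culture, the step that the submitters describe as leading from basal cell proliferation to stratification of the epithelium. The cells were wild-type primary airway basal stem cells isolated from mouse trachea and grown on a membrane with air above. RNA was sequenced on days 1, 3 and 5 with 3 libraries a day, and the 3 libraries of day 3 were set against the 3 of day 1. By the labels, all libraries share the genotype and the type of culture and differ by day. The levels of sex-linked genes, given below, also differed between the days. Whether a day's libraries are separate cultures or animals is not stated in the labels, and p-values then cover the spread among these libraries alone, possibly a technical one. Of the 56748 genes of the series, 15973 had at least 10 normalized counts in 3 or more of these 6 libraries and were tested. A normalized count is a read count divided by the authors' size factor of its library. The gene nearest the limit inside had 10.17 normalized counts in the lowest of its 3 highest libraries and the nearest outside had 9.99, and 40775 genes were left out.

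Basal cells are the stem cells of the tracheal lining. In culture under air they first divide and spread on the membrane, and their daughters then move off it to form upper layers. That change reaches beyond the keratins and cell type markers by which it is usually followed, since a dividing cell and a layered, exposed cell differ in how they make protein, renew proteins, burn fuel, copy and pack DNA, and meet microbes and oxidants. The gene families below were therefore described by the part of the cell they serve.

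The 6 libraries held 19493683 to 35057540 reads, with 26474958 to 35057540 on day 1 and 19493683 to 24557054 on day 3. Across genes, which do not count as replicates, Pearson's r of the libraries was 0.982 to 0.989 within a day and 0.809 to 0.862 between days. Day 3 replicate 3 lay nearer to day 1 (0.849 to 0.862) than the other day 3 libraries. Of the basal markers, Krt15 rose and Krt5, Krt14, Trp63 and Itga6 fell, and the 5 together had 228364 to 247209 normalized counts on day 1 and 365813 to 422261 on day 3. The 8 fibroblast markers summed to 31.19 to 39.02 normalized counts on day 1 and 5.36 to 12.8 on day 3, and Dcn and Postn had no read. The 5 endothelial markers summed to 5.81 to 15.2 and 14.8 to 24.98, and the 3 red cell markers to 5.81 to 10.9 and 4.93 to 8.03. The 5 muscle markers summed to 7.47 to 16.98 and 9.99 to 19.74, and the 3 thyroid and esophagus markers to 38.65 to 45.48 and 57.46 to 76.32. The 4 cartilage markers fell in sum, from 344.5 to 607.8 on day 1 to 135.2 to 280.3 on day 3. So did the 4 neuronal and glial markers, from 191.8 to 220.7 to 75.98 to 111.1, though 2 of them rose and 1 fell. The 9 leukocyte markers summed to 259 to 296 normalized counts on day 1 and 2157 to 2264 on day 3, of which nearly all was Cd68 and Lyz2, while the pan-leukocyte gene Ptprc had no read on day 3 and Tyrobp had none on either day. The 4 Y-linked genes Ddx3y, Eif2s3y, Uty and Kdm5d summed to 3027 to 3253 normalized counts on day 1 and 299.9 to 348 on day 3, and Xist, the transcript of the inactive X chromosome, had 1548, 1908 and 2018 on day 1 and 6231, 6346 and 5416 on day 3. These sex-linked levels differed between the days without overlap, and the share of male and female cells and the day cannot be told apart.

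In the limma fit, 12184 genes (76.3%) passed an adjusted p of 0.05. Of the tested genes, 5920 (37.1%) rose and 6264 (39.2%) fell. A change of at least 2-fold was added to the test for a second count, which 3734 genes (23.4%) passed upward and 3755 (23.5%) downward. The 3 day 3 libraries were all above the 3 day 1 libraries for 6228 genes (39.0%) and all below for 6663 (41.7%). Lack of overlap was thus the common state of a gene, and wherever it is given below it is read beside these shares. The median log2 change of all tested genes was -0.02, and the medians of families below are read beside that value. Their counts of rises and falls are likewise read beside the 37.1% and 39.2% of all tested genes. In bulk RNA, fewer cells of a type and less RNA per cell cannot be told apart.

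The change went with transcript length. Among 10 equal bins of genes by length, the median log2 change was 0.74 for transcripts of 60 to 658 bases and 0.39 for those of 1467 to 1864 bases. It was -0.03 for 2284 to 2743 bases and -0.96 for the longest bin, which starts at 5202 bases. Families of short transcripts therefore lie high and families of long transcripts low on the common scale. A second median, from a fit in which the trend with length and GC content was first taken out of each library, is given as the length-corrected value wherever it differs by over 1.5 times and for some other families. A gene's log2 change is likewise followed by its length-corrected value where that differs by over 1.5 times. Its median over all tested genes was 0.05.

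**Figure D1:**
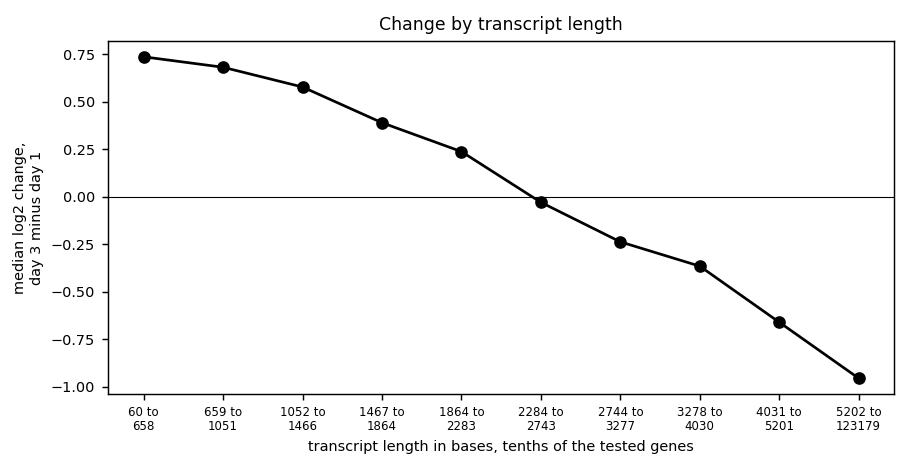
Median log2 change from day 1 to day 3 (y axis) for 10 equal bins of the tested genes ordered by transcript length in bases (x axis). The median drops from 0.74 in the shortest bin to -0.96 in the longest.

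**Figure D2:**
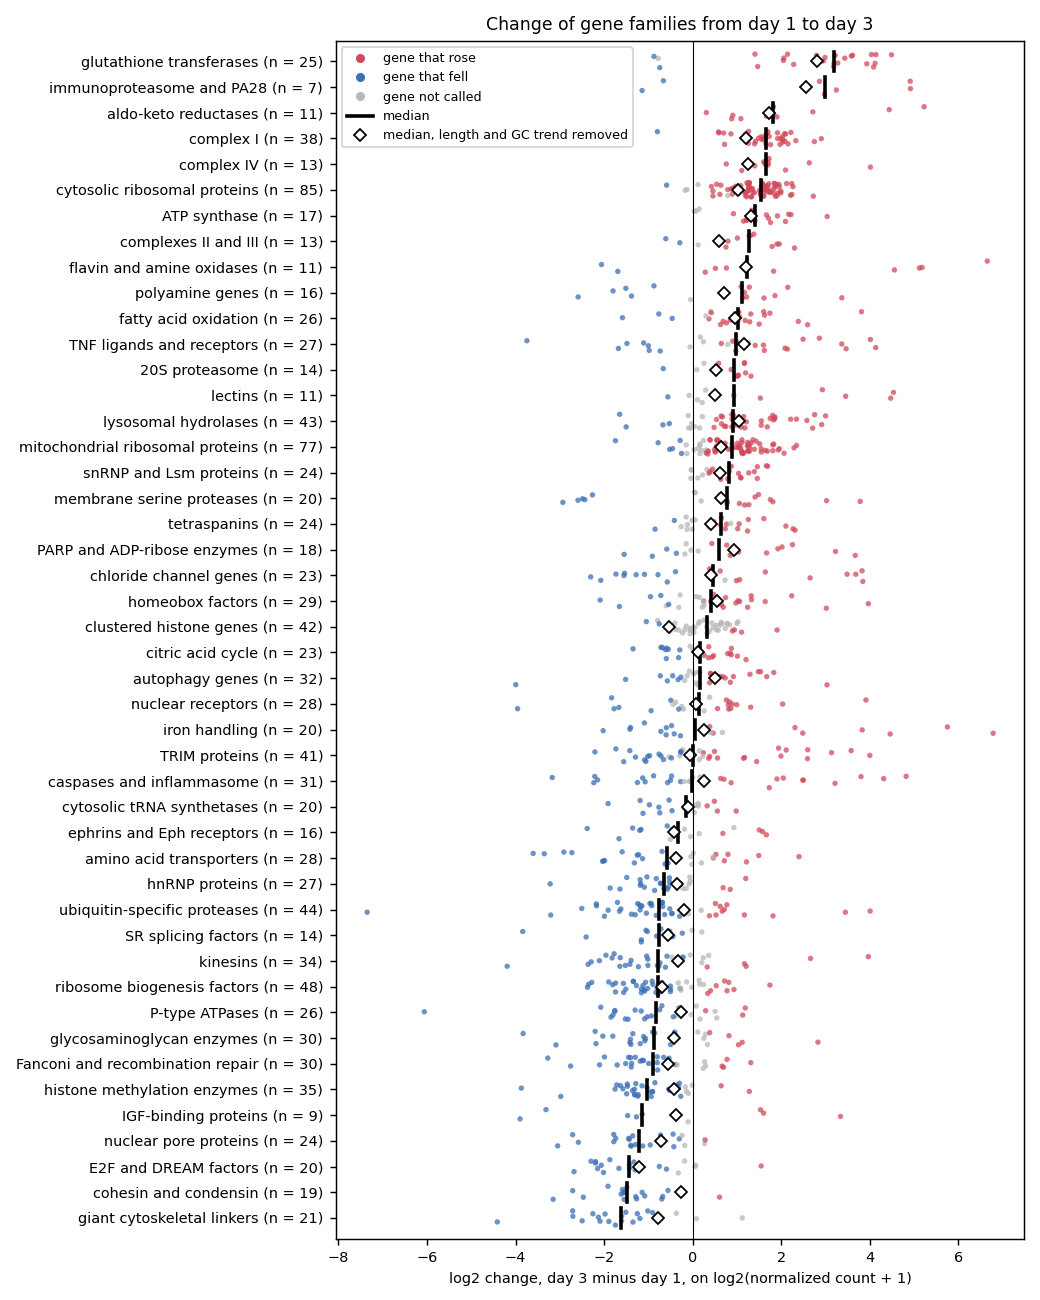
Log2 change from day 1 to day 3 on the scale of log2(normalized count + 1) (x axis) for each tested gene of 46 families, 1 point a gene, coloured by whether it rose, fell or was not called. Black bars mark the family medians and diamonds the medians with the length and GC trend removed. Glutathione transferases had the highest median, 3.18, and the giant cytoskeletal linkers the lowest, -1.61.

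Protein breakdown changed in its parts more than as a whole. The proteasome is a barrel with 3 catalytic subunits on each inner ring, and cells exposed to interferon exchange these for inducible versions that cut peptides for display to T cells. Each inducible subunit rose steeply. Psmb8 (ENSMUSG00000024338), the inducible chymotrypsin-like subunit, had 17.6, 12.4 and 12.1 normalized counts on day 1 and 468, 462 and 412 on day 3 (log2 change 4.91, SE 0.23, limma adjusted p = 1.3e-07). Psmb9 (ENSMUSG00000096727), the inducible caspase-like subunit, had 11.5, 7.47 and 7.88 on day 1 and 341, 344 and 219 on day 3 (log2 change 4.92, SE 0.27, limma adjusted p = 2.6e-07). Psmb10 (ENSMUSG00000031897), the inducible trypsin-like subunit, had 208, 209 and 198 on day 1 and 1677, 1645 and 1217 on day 3 (log2 change 2.86, SE 0.19, limma adjusted p = 7.2e-07). The days did not overlap for any of the 3 genes. The standard partners had smaller log2 changes. Psmb5 had 1813, 1836 and 1612 on day 1 and 4395, 4274 and 3265 on day 3 and Psmb6 had 2749, 2935 and 2794 on day 1 and 6285, 5938 and 5020 on day 3, with log2 changes of 1.17 and 1.02 (limma adjusted p = 0.0001 and 8.6e-05). With the length trend removed these became 0.25 and 0.21, the second no longer past the test. Psmb7, the standard partner of Psmb10, fell, but its transcript end is covered by another gene in the reference and its reads are uncertain.

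The caps of the barrel divided in the same way. Psme1 (ENSMUSG00000022216) and Psme2 encode PA28 alpha and beta, which open the barrel for peptides and are induced by interferon. Psme1 had 646, 529.7 and 612 normalized counts on day 1 and 6104, 6186 and 4746 on day 3 (log2 change 3.25, SE 0.16, limma adjusted p = 1.7e-07), and Psme2 had 520.1, 543 and 484 on day 1 and 4643, 4412 and 3278 on day 3, a log2 change of 2.98. Psme3 encodes PA28 gamma, the nuclear cap known from dividing cells. It had 4995, 6213 and 5527 on day 1 and 2508, 2544 and 2498 on day 3, a fall without overlap (log2 change -1.14, SE 0.09, limma adjusted p = 1.9e-06). Psme4, which encodes the cap PA200, fell by 0.66 on the log2 scale, but its change was 0.56 once the length trend was removed. The peptide transporter genes Tap1 and Tap2, which carry proteasome products into the endoplasmic reticulum, went from 250 ± 11.3 to 953 ± 15.9 and from 55.6 ± 11.6 to 646 ± 62.6 normalized counts (mean ± SD, n = 3), log2 changes of 1.93 and 3.53. Over the 7 tested genes of the inducible subunits and free caps, 5 rose and 2 fell, with a median of 2.98. The 14 standard subunits of the 20S barrel had 11 rises and 1 fall at a median of 0.94 (length-corrected 0.53). Of the 9 leukocyte markers 3 rose beside these genes, at the summed levels given above, and their part in the rise was not tested.

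**Figure D3:**
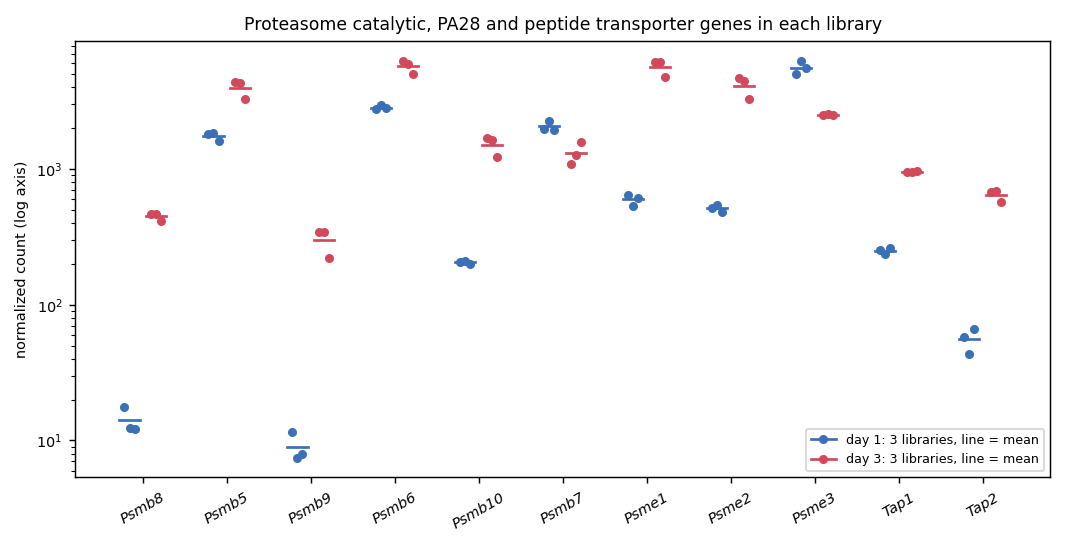
Normalized counts (log axis) of proteasome catalytic subunits, PA28 caps and peptide transporter chains in each of the 3 day 1 and 3 day 3 libraries, with the mean of each day as a line. Inducible subunits Psmb8, Psmb9 and Psmb10 stand apart by day, with every day 3 library above every day 1 library, while Psmb7 and Psme3 lie lower on day 3.

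Members of the TRIM family, ubiquitin ligases of which several restrict viruses, went both ways. Of 41 tested, 16 rose and 15 fell, with a median of 0.01 (length-corrected -0.06), near that of all tested genes. Trim12a had 26.4, 21.6 and 42.5 normalized counts on day 1 and 265, 281 and 243 on day 3 (log2 change 3.14, SE 0.24, limma adjusted p = 1.4e-06). Trim12c, its close paralog, had 48.8, 57.3 and 68.5 on day 1 and 369.7, 389.6 and 305 on day 3, and reads of the pair may be shared between them. Trim21, the cytosolic antibody receptor, had 52.9, 49.8 and 67.3 on day 1 and 157, 145 and 163 on day 3 (log2 change 1.45, SE 0.18, limma adjusted p = 3.2e-05). These 3 members rose without overlap, as did Trim45 with a log2 change of 1.99. In the other direction, Trim59 fell by 1.73 (length-corrected -0.92) and Trim33, a ligase of SMAD signalling, by 1.56 (length-corrected -0.35) on the log2 scale.

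The promoters of the risers were searched because the members that rose include known interferon targets. RefSeq promoters of 300 bases (250 before to 50 after the start, GRCm38.p6) were held for 10555 of the tested genes (66.1%). The core of the interferon-stimulated response element, searched on both strands as GAAANNGAA, was in 7.01% of them, in 7.53% of those of genes that rose and in 6.52% of those that fell. Among TRIM promoters it was in 9 of 32 (28.1%), of which 8 belonged to genes that rose and none to one that fell. Other families held it too. It was in 11 of 62 cytosolic ribosomal protein promoters (17.7%), all of genes that rose. It was in 7 of 45 of DEAD and DEAH helicases (15.6%, 1 rose and 6 fell) and 4 of 22 of Fanconi and recombination genes (18.2%, none rose and 2 fell). Of the 7 genes of the inducible subunits and free caps, Psme1 alone held it in this window. The promoters of Psme1 (chr14:55578244-55578543, plus strand), Trim12a (chr7:104315446-104315745, minus strand) and Trim21 (chr7:102565433-102565732, minus strand) are shown 5′ to 3′ with the matches in capitals.
Psme1: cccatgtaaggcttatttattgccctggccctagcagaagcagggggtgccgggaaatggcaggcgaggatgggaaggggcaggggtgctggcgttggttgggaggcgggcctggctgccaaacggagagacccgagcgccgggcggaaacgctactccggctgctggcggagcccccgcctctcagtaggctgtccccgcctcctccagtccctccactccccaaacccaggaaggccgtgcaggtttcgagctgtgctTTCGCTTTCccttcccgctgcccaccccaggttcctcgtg
Trim12a: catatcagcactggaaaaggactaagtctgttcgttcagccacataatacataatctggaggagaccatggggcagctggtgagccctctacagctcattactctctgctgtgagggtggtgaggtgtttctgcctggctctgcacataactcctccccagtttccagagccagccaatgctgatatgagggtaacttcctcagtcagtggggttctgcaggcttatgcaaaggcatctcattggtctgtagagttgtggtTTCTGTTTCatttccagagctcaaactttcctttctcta
Trim21: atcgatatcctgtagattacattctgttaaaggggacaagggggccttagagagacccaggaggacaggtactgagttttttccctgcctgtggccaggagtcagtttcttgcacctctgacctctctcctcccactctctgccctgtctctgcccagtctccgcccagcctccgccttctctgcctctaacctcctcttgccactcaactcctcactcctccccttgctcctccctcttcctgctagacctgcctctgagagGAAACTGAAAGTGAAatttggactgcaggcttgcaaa
The match starts 10 bases past the transcription start in Psme1 and 11 past it in Trim12a, and Trim21 has 2 overlapping matches, at 13 and 19 bases. These are matches of letters, not shown sites of binding.

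Enzymes that attach or remove ADP-ribose, many of them antiviral, rose more often than they fell. Ligases of the Dtx group, which rose, were counted with them. Of 18 tested, 10 rose and 4 fell (median 0.60, length-corrected 0.93). Parp10 had 66.5, 74.7 and 71.0 normalized counts on day 1 and 761, 698 and 564 on day 3 (log2 change 3.23, SE 0.14, limma adjusted p = 1e-07). Parp14 rose by 2.25 (length-corrected 3.39) and Dtx3l, a ligase that works with a macro PARP, by 2.02. Macrod1, which removes ADP-ribose from proteins, had 45.4, 53.97 and 63.7 on day 1 and 771, 742 and 593 on day 3 (log2 change 3.67, SE 0.21, limma adjusted p = 3.4e-07). Parp1, the DNA damage sensor, and Tiparp, a target of the aryl hydrocarbon receptor, went the other way and fell by 0.91 and 1.55 (length-corrected -0.47) on the log2 scale. Days did not overlap for any of these 6 genes.

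Ubiquitin-specific proteases, which strip ubiquitin from proteins, mostly fell. Of 44 tested, 11 rose and 31 fell, 4 and 18 of them at least 2-fold, at a median of -0.76. Their transcripts are long, and the length-corrected median was -0.18, with 16 rises and 20 falls. Usp18, which removes the ubiquitin-like ISG15 and dampens interferon receptor signalling, had 35.3, 23.2 and 31.5 normalized counts on day 1 and 506, 479 and 488 on day 3 (log2 change 4.01, SE 0.17, limma adjusted p = 9.9e-08). Usp2, known for a daily rhythm in many tissues, had 24.4, 20.8 and 32.7 on day 1 and 312, 316 and 244 on day 3. Usp1, a partner of DNA crosslink repair, had 3001, 3480 and 3241 on day 1 and 727, 656 and 768 on day 3. Usp31 fell by 2.50 (length-corrected -1.28) on the log2 scale. The first pair thus rose without overlap while the second pair fell without overlap.

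Most lysosomal enzymes rose. Of 43 tested hydrolases, 32 rose and 4 fell, at a median of 0.92 and a length-corrected 1.05. Naglu, which cuts heparan sulfate, went from 131 ± 18.9 to 882 ± 37.3, Hexa from 184 ± 21.1 to 1102 ± 139.5 and Psap, the precursor of the saposins, from 5699 ± 158 to 16755 ± 1403 (mean ± SD, n = 3). Asah1, acid ceramidase, was an exception with 4370, 4618 and 4394 on day 1 and 1380, 1437 and 1967 on day 3 (log2 change -1.50, SE 0.15, limma adjusted p = 7.3e-06, length-corrected -0.93). Cd68, a lysosomal glycoprotein that is on the leukocyte marker list, rose beside them.

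Protein synthesis divided between the ribosome and the machinery that builds it. Of 85 cytosolic ribosomal protein genes, 80 rose and 1 fell, 69 of them at least 2-fold, at a median of 1.54 (length-corrected 1.02, quantile-normalized 0.94). They took 5.57%, 5.32% and 5.18% of normalized counts on day 1 and 13.4%, 13% and 10.7% on day 3. Rpl21 had 3161, 3218 and 2967 on day 1 and 26725, 22774 and 14349 on day 3, and Rplp0, of the ribosomal stalk, had 41012, 43823 and 40307 on day 1 and 107708, 106659 and 86231 on day 3. The fall was that of Rpl7l1, a paralog used in ribosome assembly, by 0.59. Many ribosomal protein genes have near-identical pseudogenes, so their counts are uncertain. Ribosome biogenesis factors went the other way: of 48 tested, 8 rose and 32 fell, at a median of -0.78. Utp20, of the small subunit processome, had 2755, 3601 and 3224 on day 1 and 614, 594 and 625 on day 3 (log2 change -2.38, SE 0.12, limma adjusted p = 1.7e-07, length-corrected -1.21). Ddx21, a nucleolar helicase, had 8277, 11489 and 9178 on day 1 and 1829, 1868 and 1928 on day 3 (log2 change -2.35, SE 0.14, limma adjusted p = 3.8e-07, length-corrected -1.48). Dkc1, the pseudouridine synthase of ribosomal RNA, fell by 2.28, and Npm1, the nucleolar chaperone, fell by 1.16. Among those that rose was Nop53, from 3184 ± 254 to 10712 ± 1404 (log2 change 1.74).

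The 20 cytosolic tRNA synthetases were mixed, with 4 rises, 9 falls and a median of -0.14. The amino acid response element core, searched as TGATGNAA on both strands, was in 5 of their 13 promoters held (38.5%) and in 2.16% of all. Of those 5 genes 1 rose and 2 fell, so holding the letters did not go with 1 direction.

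Respiratory chain genes of the nuclear genome mostly rose. Of 38 complex I subunits, 37 rose and 1 fell, at a median of 1.67 (length-corrected 1.20), and of 13 complex IV subunits 13 rose, at 1.66 (length-corrected 1.25). Complexes II and III had 10 rises among 13 and a median of 1.27, or 0.59 length-corrected. Ndufa2 had 1225, 1026 and 1036 normalized counts on day 1 and 10356, 9095 and 5823 on day 3 (log2 change 2.90, SE 0.27, limma adjusted p = 4.7e-06). The single fall in complex I was that of Ndufs1, its largest iron-sulfur subunit, from 1893 ± 63.9 to 1093 ± 107 (log2 change -0.80, length-corrected -0.42). In ATP synthase 14 of 17 rose, led by Atp5e with 1657, 1347 and 1331 on day 1 and 14902, 13579 and 8133 on day 3. The 2 chains that form its catalytic head, Atp5a1 and Atp5b, did not pass the test. Atp5b had 26027, 26658 and 25919 on day 1 and 26735, 28015 and 25910 on day 3 (limma adjusted p = 0.77) and Atp5a1 had 18677, 19993 and 19026 on day 1 and 20135, 21113 and 19787 on day 3 (limma adjusted p = 0.47), with overlapping days. Both turned negative under quantile normalization. Differences between subunits of the complex were not tested.

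Among enzymes that feed the chain, fatty acid oxidation rose and the citric acid cycle was mixed. Of 26 fatty acid oxidation genes, 20 rose and 3 fell at a median of 1.01. Etfb, the electron transfer flavoprotein chain, had 70.5, 58.1 and 39.4 normalized counts on day 1 and 1038, 930.5 and 488 on day 3 (log2 change 3.81, SE 0.37, limma adjusted p = 5.5e-06), and Decr1, which handles unsaturated chains, had 122.7, 82.2 and 107 on day 1 and 677, 645 and 558 on day 3 (log2 change 2.60, SE 0.19, limma adjusted p = 1.1e-06). Of 23 citric acid cycle genes, 11 rose and 9 fell, beside 37.1% and 39.2% of all tested genes, at a median of 0.17. Mdh1, cytosolic malate dehydrogenase, rose by 1.21, and Pdha1, the entry of pyruvate, fell by 1.35 (length-corrected -0.88) on the log2 scale.

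In several of these families the day 3 libraries were unlike. Day 3 replicate 3 was the day 3 library nearest to the day 1 mean for 58.0% of all tested genes. The share was 91.8% of cytosolic ribosomal proteins, 94.7% of complex I, 92.9% of the standard 20S subunits and 100% of ATP synthase. Median changes of complex I against day 1 were 1.89, 1.76 and 1.39 in day 3 replicates 1, 2 and 3. Lysosomal hydrolases showed little of this, with 1.00, 0.94 and 0.86, and fatty acid oxidation had 0.98, 1.06 and 0.99. Without day 3 replicate 3 the fitted medians were 1.66 for cytosolic ribosomal proteins, 1.83 for complex I, 1.55 for ATP synthase and 1.04 for the standard 20S subunits, and 5814 genes rose and 6134 fell.

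**Figure D4:**
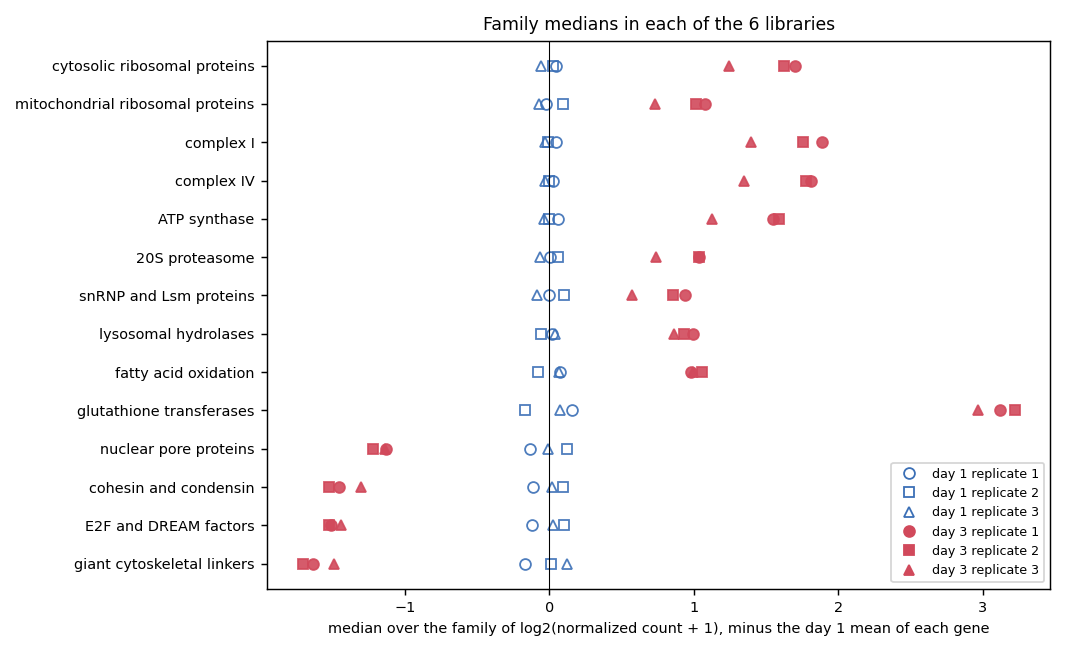
Median over each of 14 families of log2(normalized count + 1) minus the gene's day 1 mean (x axis), 1 symbol a library. In ribosomal, respiratory and 20S proteasome families day 3 replicate 3 (filled triangle) lies nearer to day 1 than the other day 3 libraries, while every day 3 library lies on the same side of all day 1 libraries in each family drawn.

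Nuclear pore and histone methylation genes mostly fell, and many of their transcripts are long. Nuclear pore proteins line the channel between nucleus and cytoplasm, and of 24 tested 1 rose and 20 fell, at a median of -1.21 (length-corrected -0.71). Nup153, of the nuclear basket, had 2847, 3554 and 3368 normalized counts on day 1 and 471, 434 and 593 on day 3 (log2 change -2.71, SE 0.19, limma adjusted p = 1e-06, length-corrected -1.65). Nup160, of the outer ring, had 1534, 1749 and 1795 on day 1 and 269.8, 250.4 and 329.6 on day 3 (log2 change -2.58, SE 0.18, limma adjusted p = 9.1e-07, length-corrected -1.53). Of 35 enzymes that write or erase histone methylation, 2 rose and 29 fell (median -1.03, length-corrected -0.42). The falls include that of the Y-linked Kdm5d (log2 change -3.87), 1 of the sex-linked genes given above. Kdm3a, a demethylase of H3K9, fell by 1.75 (length-corrected -0.82) on the log2 scale. Kmt5c, which methylates histone H4, was 1 of the 2 that rose, with 589, 508 and 625 on day 1 and 1434, 1406 and 1333 on day 3 (log2 change 1.28, SE 0.10, limma adjusted p = 1.8e-06, length-corrected 0.50).

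RNA processing split by the kind of factor. Of 14 SR splicing factors, which mark exons, none rose and 12 fell, at a median of -0.76 (length-corrected -0.56). Srsf2 had 5394, 6630 and 6031 normalized counts on day 1 and 878, 1067 and 1546 on day 3 (log2 change -2.40, SE 0.20, limma adjusted p = 2.6e-06). Of 27 hnRNP genes, 3 rose and 19 fell. Ptbp1, a repressor of exons whose decline is known from maturing neurons and muscle, had 8224, 9781 and 8866 on day 1 and 626, 838 and 1682 on day 3 (log2 change -3.22, SE 0.30, limma adjusted p = 4.7e-06), with day 3 replicate 3 above the other day 3 libraries but below all of day 1. Hnrnph1 fell by 1.86. By contrast, the small proteins of the spliceosome core rose: of 24 snRNP and Lsm genes, 18 rose and none fell, at a median of 0.81 (length-corrected 0.62). Lsm4 rose by 1.69 and Snrpd2 by 1.46, the first by 0.56 with the length trend removed.

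Genes that hold and fold chromosomes for division fell. Of 19 cohesin and condensin genes, 1 rose and 18 fell, 14 of them at least 2-fold, at a median of -1.49. The length-corrected median was -0.27, with 11 falls and 3 rises. Smc2 (ENSMUSG00000028312), the condensin ATPase, had 2900, 3827 and 3425 normalized counts on day 1 and 334, 339 and 477 on day 3 (log2 change -3.15, SE 0.20, limma adjusted p = 5.6e-07, length-corrected -1.87). Ncapg2, of condensin II, had 2185, 2557 and 2367 on day 1 and 455, 394 and 433 on day 3 (log2 change -2.47, SE 0.16, limma adjusted p = 6.7e-07, length-corrected -1.48). Rad21, the cleavable ring subunit of cohesin, fell by 1.61 (length-corrected -0.76). Ncaph2, also of condensin II, was the single gene that rose, by 0.61.

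The E2F factors and their partners, which switch cell cycle genes on and off, mostly fell, with the trend in length removed as well as without. Of 20 tested, 1 rose and 15 fell, at a median of -1.43 and a length-corrected -1.20. Among the atypical repressors, E2f7 had 947, 1393 and 1018 normalized counts on day 1 and 145, 181 and 192 on day 3 (log2 change -2.68, SE 0.17, limma adjusted p = 6.6e-07), and E2f8 had 1476, 2044 and 1677 on day 1 and 356, 337 and 436 on day 3 (log2 change -2.19, SE 0.19, limma adjusted p = 3e-06). Tfdp1, the dimer partner, fell by 2.01, Mybl2 by 1.67 and Lin9, of the MuvB core, by 2.19 (length-corrected -1.46). Lin37, another MuvB subunit, rose from 219 ± 19.6 to 643 ± 67.6 (log2 change 1.55, length-corrected 0.71). The activator E2f1 (-0.32, limma adjusted p = 0.06) and the repressor E2f4 (-0.18, limma adjusted p = 0.12) did not pass the test, though both did with the length trend removed (-0.84 and -0.79).

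Kinesins, motors of the spindle and of transport, mostly fell. Of 34 tested, 5 rose and 22 fell, at a median of -0.78 (length-corrected -0.34). Kif20b (ENSMUSG00000024795) and Kif23 (ENSMUSG00000032254), both motors of cell division, had 1568, 2150 and 1762 normalized counts on day 1 and 322, 292 and 463 on day 3 for the first and 3152, 3961 and 3484 on day 1 and 1338, 1186 and 1433 on day 3 for the second. Their log2 changes were -2.36 (length-corrected -1.06) and -1.42 (length-corrected -0.84). The transport motor Kif5b fell too, by 1.65 (length-corrected -0.34). Kif19a, a motor of motile cilia, rose with 16.3, 5.81 and 15.2 on day 1 and 179, 202 and 198 on day 3 (log2 change 3.97, SE 0.31, limma adjusted p = 1.7e-06), and Kifc2 rose by 2.66.

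The promoters of the dividing-cell genes were searched for the cell cycle genes homology region, TTTGAA on either strand, through which DREAM is known to act. It was in 12.5% of promoters of all tested genes, 11.7% of those that rose and 13.1% of those that fell. It was in 11 of 26 kinesin promoters (42.3%), 10 of genes that fell. It was in 6 of 15 of cohesin and condensin (40.0%), all of which fell, and in 5 of 14 of the E2F group (35.7%), 4 of which fell. In these families 22 of 34, 18 of 19 and 15 of 20 tested genes fell whatever their promoter. Clustered histone genes held it in 19 of 37 (51.4%), of which 2 rose and none fell, and peroxins in 5 of 11 (45.5%), of which 3 rose and 1 fell. Fanconi and recombination genes, which mostly fell, held it in 1 of 22 (4.55%). Whether holding the letters goes with a fall was not tested. The promoters of Kif20b (chr19:34922108-34922407, plus strand), Kif23 (chr9:61946750-61947049, minus strand) and Smc2 (chr4:52438971-52439270, plus strand) are shown 5′ to 3′ with these letters in capitals.
Kif20b: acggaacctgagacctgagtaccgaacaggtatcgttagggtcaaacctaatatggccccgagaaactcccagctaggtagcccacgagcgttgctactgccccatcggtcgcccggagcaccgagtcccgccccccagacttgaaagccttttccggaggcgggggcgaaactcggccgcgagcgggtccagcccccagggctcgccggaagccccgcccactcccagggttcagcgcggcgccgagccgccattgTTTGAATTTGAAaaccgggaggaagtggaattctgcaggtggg
Kif23: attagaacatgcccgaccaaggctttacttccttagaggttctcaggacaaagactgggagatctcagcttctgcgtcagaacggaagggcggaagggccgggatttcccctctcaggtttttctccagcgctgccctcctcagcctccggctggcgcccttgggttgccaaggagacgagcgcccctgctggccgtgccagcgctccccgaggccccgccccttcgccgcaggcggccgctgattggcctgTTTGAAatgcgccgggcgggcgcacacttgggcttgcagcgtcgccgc
Smc2: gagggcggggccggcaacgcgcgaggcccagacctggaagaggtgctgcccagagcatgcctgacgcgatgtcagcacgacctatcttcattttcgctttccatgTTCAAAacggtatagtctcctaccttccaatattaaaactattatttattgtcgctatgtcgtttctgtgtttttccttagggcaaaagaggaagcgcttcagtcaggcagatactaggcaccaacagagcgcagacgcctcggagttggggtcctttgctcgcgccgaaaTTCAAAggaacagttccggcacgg
Kif20b has 2 adjacent matches at 7 and 13 bases past the start, Kif23 has 1 at 2 bases past it, and Smc2 has matches 145 bases before and 26 after it. No binding was measured here.

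The giant linkers of the cytoskeleton fell. Of 21 spectrin, plakin, filamin and ankyrin genes, 18 fell and none rose, at a median of -1.61 (length-corrected -0.79, 15 falls and 1 rise). Macf1, which joins actin to microtubules, had 7769, 10338 and 9927 normalized counts on day 1 and 1406, 1382 and 1464 on day 3 (log2 change -2.71, SE 0.15, limma adjusted p = 3.5e-07, length-corrected -1.51). Dsp, the plakin of desmosomes, had 23215, 25098 and 27846 on day 1 and 4775, 4313 and 4409 on day 3 (log2 change -2.49, SE 0.15, limma adjusted p = 4.6e-07, length-corrected -1.65). Syne1, which ties the nucleus to the cytoskeleton, had 106, 208 and 154 on day 1 and 3.75, 5.36 and 10.8 on day 3. Every day 3 library was below every day 1 library for these 3 genes. Tetraspanins, small membrane organizers, went up, with 13 rises and 2 falls among 24. Tspan1 had 1817, 1055 and 1730 on day 1 and 7809, 8017 and 6504 on day 3 and Tspan8 2428, 1766 and 2345 on day 1 and 9521, 9210 and 9162 on day 3, log2 changes of 2.31 and 2.11.

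Among detoxifying enzymes, the glutathione transferases had the highest median of the families drawn. Of 25 glutathione transferases, 22 rose and 2 fell, all 22 rises at least 2-fold, at a median of 3.18 (length-corrected 2.80). They took 0.617%, 0.542% and 0.606% of normalized counts on day 1 and 2.56%, 2.65% and 2.67% on day 3. Gsto1, of the omega class, had 86197, 84943 and 87762 normalized counts on day 1 and 410139, 419963 and 428798 on day 3 (log2 change 2.28, SE 0.20, limma adjusted p = 3e-06). The whole family summed to means of 125600 on day 1 and 676600 on day 3, so most of its counts were of Gsto1. Gsto2 had 13.6, 15.8 and 9.10 on day 1 and 326, 308 and 275 on day 3, and Gstp1 had 7469, 6645 and 7960 on day 1 and 138162, 129000 and 98338 on day 3, where reads may be shared with its near copy Gstp2. The 2 that fell were the alpha class copies Gsta1 (-0.74) and Gsta2 (-0.87). All 11 aldo-keto reductases tested rose, by 0.31 to 5.23 with a median of 1.82. Akr1a1, aldehyde reductase, rose by 0.91 (length-corrected 0.36), and Akr1c19 had 3.39, 4.98 and 4.85 on day 1 and 154, 128 and 77.0 on day 3.

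Iron genes went both ways: of 20 tested, 8 rose and 10 fell, beside 37.1% and 39.2% of all tested genes. Tfrc, the receptor that brings in transferrin iron, had 9400, 12269 and 9888 normalized counts on day 1 and 2634, 2465 and 2626 on day 3 (log2 change -2.02, SE 0.14, limma adjusted p = 8.5e-07, length-corrected -1.16). The ferritin chains that store iron went the other way: Fth1 had 27904, 21149 and 27670 on day 1 and 151963, 138615 and 136190 on day 3 (log2 change 2.49, SE 0.18, limma adjusted p = 1.3e-06), and Ftl1 rose by 2.31 (length-corrected 1.32). Ncoa4, which delivers ferritin to the lysosome, fell by 1.40 (length-corrected -0.58). Secreted binders of iron, siderophores and copper rose. Lcn2, which captures bacterial siderophores, had 84.8, 9.13 and 83.7 on day 1 and 4878, 5361 and 3767 on day 3 (log2 change 6.78, SE 0.65, limma adjusted p = 5.6e-06), and Ltf, lactoferrin, had 4313, 1661 and 4325 on day 1 and 47023, 47052 and 40045 on day 3 (log2 change 3.83, SE 0.31, limma adjusted p = 2e-06). Cp, ceruloplasmin, had 165, 35.7 and 196 on day 1 and 5706, 6693 and 4919 on day 3 (log2 change 5.75, SE 0.49, limma adjusted p = 2.8e-06). Day 1 replicate 2 was the lowest day 1 library for all 3 secreted genes, and all 3 day 3 libraries lay above all of day 1.

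Polyamine genes went both ways. Of 16 tested, 10 rose and 5 fell, with a median of 1.11 (length-corrected 0.70). Of the synthetic enzymes, Odc1, the first of the pathway, had 13047, 17759 and 13237 normalized counts on day 1 and 2388, 2137 and 2781 on day 3 (log2 change -2.58, SE 0.14, limma adjusted p = 2.1e-07), and Amd1 had 7081, 7149 and 7121 on day 1 and 2693, 2726 and 2773 on day 3 (log2 change -1.38, SE 0.07, limma adjusted p = 2.6e-07, length-corrected -0.59). Not every gene of synthesis fell: spermine synthase, Sms, was not called, at a log2 change of -0.05 (length-corrected 0.79), and Arg1 and Arg2, which make ornithine, rose by 2.15 and 1.28. Arg2 did not pass the test without day 1 replicate 2 or without day 3 replicate 3 (log2 changes 1.08 and 0.945). Sms and Arg2 were added after their values were seen. Azin1, which shields Odc1 from degradation, fell by 1.51 (length-corrected -0.35). Oaz1, the antizyme that sends Odc1 to the proteasome, had 6137, 5727 and 5630 on day 1 and 18376, 18495 and 16620 on day 3 (log2 change 1.61, SE 0.14, limma adjusted p = 3.5e-06, length-corrected 0.64). Sat1, which acetylates polyamines for export, rose by 1.17, its relative Sat2 by 3.37 and the inhibitor paralog Azin2 by 1.86 (length-corrected 1.09).

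Amino acid transporters, glycosaminoglycan enzymes and P-type ATPases fell more often than they rose. Of 28 amino acid transporters, 7 rose and 15 fell (median -0.59, length-corrected -0.38). Slc6a14, a broad amino acid importer of epithelia, had 1120, 1048 and 1307 normalized counts on day 1 and 82.4, 93.7 and 108 on day 3 (log2 change -3.60, SE 0.17, limma adjusted p = 1.3e-07). Slc7a8 had 568, 884 and 678 on day 1 and 79.9, 49.5 and 78.0 on day 3, and Slc38a2, induced by amino acid shortage, fell by 2.04 (length-corrected -1.02). Slc1a5, a glutamine carrier, rose by 0.80 (length-corrected 0.41), and Slc7a4 by 2.40. Of 30 enzymes that build heparan and chondroitin sulfate and hyaluronan, 5 rose and 21 fell (median -0.88, length-corrected -0.41). Hs6st2, a heparan sulfotransferase, had 506, 704 and 537 on day 1 and 134.9, 112 and 132 on day 3, and Has3, a hyaluronan synthase, fell by 1.40. Of 26 P-type ATPases, ion and lipid pumps, 3 rose and 17 fell (median -0.84, length-corrected -0.27), and Atp2a2, the calcium pump of the endoplasmic reticulum, fell by 1.52 (length-corrected -0.98).

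Surface signalling families held members in both directions, and their counts are read beside the 37.1% of all tested genes that rose and the 39.2% that fell. Of 27 TNF ligands and receptors, 15 rose and 7 fell (median 0.97). Tnf had 38.6, 17.4 and 49.1 normalized counts on day 1 and 251, 221 and 251 on day 3 (log2 change 2.86, SE 0.32, limma adjusted p = 1.7e-05), and Ngfr, the low-affinity neurotrophin receptor known from basal cells, had 389.9, 360.4 and 326 on day 1 and 1505, 1707 and 1532 on day 3 (log2 change 2.14, SE 0.11, limma adjusted p = 1.7e-07). Eda2r, a receptor under p53 control, fell by 1.68 (length-corrected -1.06). Among 9 IGF-binding genes, 3 rose and 5 fell: Igfbp5 rose by 3.34 and Igfbp7 by 1.53 (length-corrected 0.54), while Igfbp3 fell by 1.14 and the RNA-binding Igf2bp1 had 157, 182 and 178 on day 1 and 12.5, 18.74 and 18.8 on day 3. Among 16 ephrin genes, 4 rose and 7 fell. The receptor Ephb2 rose by 1.66 and the ligand Efna1 by 1.58, and the receptors Epha4 and Epha2 fell by 2.38 (length-corrected -1.57) and 1.66.

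Chloride channels and their regulators went both ways. Of 23 tested, 11 rose and 10 fell (median 0.45), beside 37.1% and 39.2% of all tested genes. Ano1, the calcium-activated channel of secretory epithelia, had 1940, 2854 and 2065 normalized counts on day 1 and 421, 382 and 590.1 on day 3 (log2 change -2.30, SE 0.20, limma adjusted p = 2.9e-06), and Ano6, a lipid scramblase, fell by 2.08. Clca3b, a calcium-activated channel regulator, had 396, 428 and 370.5 on day 1 and 2247, 2358 and 2961 on day 3 (log2 change 2.65, SE 0.14, limma adjusted p = 2e-07), and Clic6 rose by 3.83. Membrane serine proteases were parted too, with 11 rises and 5 falls among 20. Hpn, hepsin, had 37.97, 27.4 and 49.7 on day 1 and 537, 516 and 526 on day 3 (log2 change 3.78, SE 0.19, limma adjusted p = 1.7e-07) and Tmprss2 rose by 1.27. The epidermal-type proteases Tmprss11b and Tmprss11e fell by 2.59 (length-corrected -1.47) and 2.44 (length-corrected -1.53).

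Cell death and sensing genes were balanced, with shares of rises and falls near those of all tested genes. Of 31 caspase, gasdermin and inflammasome genes, 12 rose and 12 fell, with a median of 0.00, or 0.26 length-corrected. Casp1, which cuts interleukin precursors, had 11.5, 9.13 and 9.10 normalized counts on day 1 and 219.8, 246 and 184 on day 3 (log2 change 4.31, SE 0.19, limma adjusted p = 9.9e-08). Casp4, the sensor of bacterial lipopolysaccharide, had 136, 120.4 and 147 on day 1 and 1287, 1354 and 1129 on day 3 (log2 change 3.21, SE 0.12, limma adjusted p = 5.7e-08), and Pycard, the adaptor that joins sensor and caspase, had 154, 88.0 and 137 on day 1 and 2148, 2006 and 1193 on day 3 (log2 change 3.80, SE 0.30, limma adjusted p = 1.9e-06). Xiap, an inhibitor of the executioner caspases, fell by 2.15 (length-corrected -0.71). Among 11 galectins and C-type lectins, 6 rose and 1 fell, with Clec2d at 141, 53.97 and 151 on day 1 and 2854, 2927 and 1764 on day 3 (log2 change 4.53, SE 0.36, limma adjusted p = 1.9e-06), Lgals4 rising by 3.46 and Lgals9 by 1.53. These families too moved beside the leukocyte markers, whose part was not tested.

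Among transcription factors outside the usual airway lists, the homeobox genes held more rises than falls. The zinc finger families held more falls than rises, which did not hold for the numbered ones with the length trend removed. Of 341 numbered zinc finger genes, 79 rose and 142 fell (median -0.32, length-corrected 0.15). With the length trend removed, 131 of them rose and 85 fell. Of 37 ZBTB factors, 6 rose and 21 fell (median -0.40, length-corrected -0.03), or 10 and 12 with the trend removed. Of 29 homeobox genes outside the Hox clusters, 16 rose and 5 fell (median 0.41), and of 28 nuclear receptors, 11 rose and 7 fell (median 0.14, length-corrected 0.08), the last a share of rises near that of all tested genes. Nr3c1, the glucocorticoid receptor, had 1301, 1480 and 1542 normalized counts on day 1 and 367, 432 and 414 on day 3 (log2 change -1.83, SE 0.17, limma adjusted p = 3.9e-06, length-corrected -0.66). Meis3 rose by 3.02 and Barx2 by 1.32 (length-corrected 0.63), while Irx5 fell by 0.95 (length-corrected -1.71).

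Some paired genes moved apart. For lactate dehydrogenase, Ldha, the chain that favours lactate, had 42147, 42146 and 41027 normalized counts on day 1 and 19970, 21767 and 22601 on day 3 (log2 change -0.96, SE 0.11, limma adjusted p = 1.6e-05), and Ldhb, the chain of oxidative tissues, had 408, 332 and 454 on day 1 and 4519, 4903 and 4147 on day 3 (log2 change 3.51, SE 0.14, limma adjusted p = 8.9e-08). Aldh1a1 and Aldh1a3, which both make retinoic acid, changed by 1.72 and -2.35. Rab27a and Rab27b, which dock secretory granules, changed by 2.39 and -1.33 (length-corrected -0.63). Of nonmuscle myosins, Myh9 and Myh10 fell by 1.93 and 1.89 (length-corrected -0.97) and Myh14 rose by 0.43. Hk2 fell by 1.06, whereas Hk1 had 4552, 4294 and 4865 on day 1 and 4813, 4900 and 5052 on day 3, overlapping between days (log2 change 0.11, limma adjusted p = 0.26). Each pair named here was among 41 chosen with earlier results of these data known, and the differences within pairs were not tested. The pairs named here do not stand for all 41. Tap1 and Tap2, and Psmb8 and Psmb5, also among the 41, rose together.

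**Figure D5:**
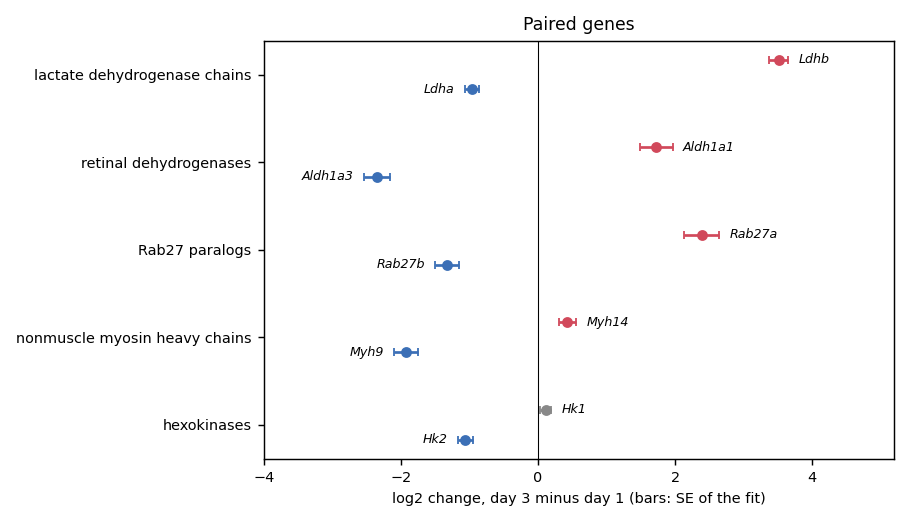
Log2 change from day 1 to day 3 with its SE (x axis) for 5 of the 41 pairs of genes with related products, others of which moved together. In 4 pairs 1 gene rose and the other fell, and in the hexokinase pair Hk1 was not called.

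Among genes past the test with at least 100 normalized counts on either day, the largest rise was that of Lyz2, a lysozyme of phagocytes and 1 of the leukocyte markers above, with 1.356, 0 and 0 normalized counts on day 1 and 573, 657 and 420.4 on day 3 (log2 change 8.67, SE 0.30, limma adjusted p = 4e-08). It was followed by the xenobiotic enzyme gene Cyp2a5 (log2 change 7.79), and the 12 largest rises also held the retinol and alcohol dehydrogenase Adh1 (7.46), the interferon-induced Ifitm1 (7.03) and Pigr (6.63), the receptor that carries antibodies to the lumen. The largest fall was that of Tubb3, a tubulin best known from neurons, with 995, 1832 and 971 on day 1 and 1.25, 0 and 7.89 on day 3 (log2 change -8.80, SE 0.63, limma adjusted p = 1.1e-06). Mroh6 had 320.1, 339.6 and 383 on day 1 and 1.25, 1.34 and 1.97 on day 3. Days did not overlap for any of these 7 genes, which were picked by the size of their change. Of all tested genes, 39.0% lay wholly above and 41.7% wholly below on day 3. Fitted changes of genes so near 0 on 1 day depend on the added count of 1. Of genes without any read on day 1, Upk3a, a urothelial plaque protein, had 201 reads on day 3 and was at least 113-fold higher, taking 3 reads over the group as the floor. Ear2 with 111 reads, Wfdc18 with 92 and Sult1d1 with 90 were at least 62.5-fold, 51.8-fold and 50.7-fold higher. In the other direction Ccnb1ip1, a meiotic and cell cycle ligase, had 336 reads on day 1 and none on day 3, at least 66.3-fold lower.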

How the data were processed

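RNA was sequenced in 9 libraries, 3 on each of days 1, 3 and 5, grouped by the sample titles. A VAHTS universal V8 kit was used on total RNA, per the labels' protocols. The submitters' processing notes name HISAT2 2.1.0, the build GRCm39 and DESeq2 1.36.0. Read counter, annotation release and use of strand: not given in the sources used here. In the file, the authors deposited the log2 of normalized counts, in which a gene with no read holds an error text. These 297330 cells were read as 0, and 359 repeated gene lines were dropped. Values were whole multiples of 1 read within 0.01 of a read in 100% of cases, so reads were read back from the deposited values.

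Genes with at least 10 normalized counts in 3 or more of the 6 libraries were fitted with limma 3.58.1 in R 4.3.3 (lmFit, eBayes with trend) on log2(normalized count + 1), with 1 mean per day over all 9 libraries, which left 6 residual degrees of freedom. The two-sided p-values were adjusted (Benjamini-Hochberg) over all 15973 genes, with a threshold of 0.05. The pseudocount of 1 understates changes of low genes. On simulated data of the same depth and 15641 genes, all of the 50 genes changed at each of log2 1 and log2 -1 were called in the right direction, and 0.0324% of unchanged genes were called. In the simulation 15441 genes were unchanged, unlike the real data, and changed genes averaged at least 50 normalized counts. All genes had the same dispersion and no trend with length. These rates therefore do not carry over to low genes or to the real comparison as a whole.

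The families, pairs, motifs and members were chosen with earlier results of these data known. Named genes are, per family, the 4 largest rises and 4 largest falls past the test with at least 100 normalized counts on either day, the 3 of highest mean, and any member of families of 12 or fewer. Both genes of each pair were also eligible, with the 12 largest rises and falls over all genes and the 6 highest genes without a read on 1 day. Some genes that this rule names are not reported here. The promoters printed were chosen after their values were seen. Transcript length, GC content and overlap came from GENCODE M21 (GRCm38) by gene identifier, for 98.6% of tested genes. Of the tested genes, 385 have at least 80% of their last 500 bases covered by another gene, and 64.4% of these fell, against 39.1% of genes without shared exonic bases. Apart from Psmb7, such genes are not named. Promoter sequences are from RefSeq, 1 per gene, without chromosome 18. No column of per-sample values was left unmapped, and n is 3 a day throughout.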

Additional observations from a re-analysis of the deposited data

How the results depend on the processing

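The numbers of genes that rose and fell stayed within 1.5 times of 5920 and 6264 under all 18 alternatives run: 5449 to 6085 rose and 5853 to 6411 fell without 1 library, and 6619 and 8059 did without the filter on low counts. Same-numbered libraries of days 1 and 3 correlated in their deviations at 0.192, -0.05 and 0.125, and differently numbered ones at -0.181 to 0.083. With 3 libraries a day these values cannot decide whether the numbers pair the samples. With the replicate number as a block, 5696 genes rose and 6070 fell, and no named gene changed its side of the threshold. Of 170 named genes, 162 kept direction and call under all alternatives that could be run for them, where 4 of them (Adh1, Cyp2a5, Lyz2, Tubb3) hold a 0 and have no value without such genes. Family medians were less stable. Of 46, 4 kept their sign and stayed within the SD of their day 3 library medians under every alternative. With the length and GC trend removed, 37 moved by at least that SD and 3 turned in sign. Under quantile normalization 16 moved, and with TMM factors 14 did. With the length and GC trend removed, Psme4 turned to 0.56, Atp5b to -0.18 and Atp5a1 to -0.005, and the family medians turned to -0.057 for TRIM proteins, 0.26 for caspases and -0.54 for clustered histones. Psmb6 lost its call (0.21), and E2f1 and E2f4 gained one (-0.84 and -0.79). Under quantile normalization Atp5b was -0.72 and Atp5a1 -0.49, both then past the test, and the caspase median was 0.032. It was 0.058 with TMM factors and 0.005 with voom on whole reads. Without genes holding a 0 the iron median was -0.28. Medians near 0 also turned without 1 library. They ranged from -0.035 to 0.068 for TRIM proteins (turned without day 1 replicate 2 or day 3 replicate 3), from -0.071 to 0.069 for iron (day 1 replicate 1 or 2, day 3 replicate 3) and from -0.072 to 0.013 for caspases (day 1 or day 3 replicate 1). E2f1 passed the test in the 6 libraries alone, with voom and without day 5 replicate 1 or 3, at -0.32 each time, and E2f4 without day 5 replicate 1. Sms, not called, was 0.021 with TMM factors, 0.090 under quantile normalization, 0.793 (then past the test) with the length trend removed, and -0.085 to 0.028 without 1 library. Arg2 lost its call without day 1 replicate 2 (1.08) or day 3 replicate 3 (0.945). The causes were not tested. With 3 libraries a day and 19493683 reads in the shallowest of the 6, genes under 10 normalized counts were not described.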

Other observations

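Further families are given here. Among 11 flavin monooxygenases and amine oxidases, which oxidize drugs and amines, 9 rose and 2 fell, at a median of 1.22. Fmo2, the lung form of the monooxygenase, had 37.3, 14.9 and 35.8 normalized counts on day 1 and 668, 743 and 585 on day 3 (log2 change 4.55, SE 0.29, limma adjusted p = 5.8e-07). Maoa, monoamine oxidase A, fell by 1.69 (length-corrected -0.62) on the log2 scale. Of 32 autophagy genes, 15 rose and 7 fell, beside 37.1% and 39.2% of all tested genes, at a median of 0.16 (length-corrected 0.51). The membrane-tethered proteins of the pathway rose, Map1lc3a with 346, 272 and 315 on day 1 and 2884, 2697 and 2105 on day 3 (log2 change 3.03, SE 0.20, limma adjusted p = 6.4e-07, length-corrected 1.88) and Gabarap by 1.67, and Atg2b, a lipid carrier with a long transcript, fell by 1.51 (length-corrected -0.64).

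Genes of DNA repair by the Fanconi and recombination pathways mostly fell: of 30 tested, 4 rose and 21 fell (median -0.90, length-corrected -0.56). Brca1 had 739, 1022 and 885 normalized counts on day 1 and 197, 221 and 242 on day 3 and Fancm fell by 2.76 (length-corrected -1.52), while Rad51b rose by 1.31. The clustered histone genes, whose transcripts are known to gather in S phase, were mostly not called: of 42 tested, 4 rose and 2 fell, at a median of 0.32 (length-corrected -0.54). H1f2 fell by 0.75 (length-corrected -1.38) and H2bc4 rose by 0.90. Most transcripts of these genes lack a poly(A) tail, and whether the libraries were selected by poly(A) remains not given in the sources used here. A difference between histone genes and the other families was not tested.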
